A study of Mus musculus with 14 samples.

Results

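The ADAM genes code for a family of membrane proteins that carry a disintegrin and a metalloprotease domain. Every gene whose symbol is Adam followed by a number and an optional letter was taken from the 2 deposited gene tables, 1 for spermatogonia and 1 for spermatocytes, and the secreted Adamts proteases were left out. The rule found 33 members among the 38444 genes listed in either table. Of these, 21 are known as testis genes, 4 are widely expressed (Adam9, Adam10, Adam15 and Adam17) and 8 are known from other tissues (Adam7, Adam8, Adam11, Adam12, Adam19, Adam22, Adam23 and Adam33). All 33 stand in the spermatocyte table and 22 in the spermatogonia table, which holds 10 of the testis members. The 11 testis members listed for spermatocytes alone are Adam6a, Adam6b, Adam20, Adam24, Adam25, Adam26a, Adam26b, Adam29, Adam34, Adam34l and Adam39. Adam34l is named Gm5346 in the annotation used for positions, and Adam28 was not analysed here.

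ADAM proteins are made as precursors that are trimmed on their way to the cell surface, and only some of them keep the residues that a working metalloprotease needs. ADAM10 and ADAM17 are sheddases, which cut the outer part off other membrane proteins: ADAM10 cuts Notch receptors and ADAM17 releases tumour necrosis factor. The testis members are transcribed in germ cells, and several of their proteins reach the sperm surface. Fertilin is the pair of an ADAM1 protein with ADAM2, and without ADAM2 or ADAM3 mouse sperm fail to pass from the uterus into the oviduct and bind poorly to the zona pellucida.

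The libraries came from C57Bl6/J mice that were wild-type or homozygous for a Dnmt3C knockout, named Dnmt3C KO/KO here. The methods mention littermates for the collection of germ cells or testes. Whether the sorted samples of the 2 genotypes were littermates of each other is not stated. DNMT3C is the rodent enzyme that methylates the promoters of young retrotransposons in fetal male germ cells. Spermatogonia were sorted at postnatal day 14 as EpCAM-positive, beta-2-microglobulin-negative cells, with 3 libraries for each genotype. Spermatocytes were sorted from mice older than 20 days by Hoechst staining and exclusion of propidium iodide, with 4 libraries for each genotype. Per the appendix of the study, the sort of Dnmt3C KO/KO spermatocytes lacks some meiotic stages and round spermatids, so that genotype and the mix of stages cannot be told apart in the spermatocyte comparison. Beyond that, in bulk RNA fewer cells of a type and less RNA per cell cannot be told apart. Whether replicates were separate animals or pools is not stated, and the p-values measure the spread between these libraries.

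Counts assigned to genes and transposons summed to between 40555726 and 49332778 in the spermatogonia libraries and to between 44883293 and 53323651 in the spermatocyte libraries. Levels are given as CPM, the counts of a gene relative to the counts of its library, on effective library sizes set by the trimmed mean of M values (TMM) over all 14 libraries. A gene was called changed at an adjusted p under 0.01 in edgeR's quasi-likelihood test. Counts summed over Dnmt3c did not fall with the knockout, at 58 to 116 in Dnmt3C KO/KO against 53 to 89 in wild-type spermatogonia and at 52 to 57 against 11 to 28 in spermatocytes, and whether they cover the altered stretch of the gene is not known. The retrotransposon promoter IAPLTR1_Mm set the genotypes apart, with 6150 to 7548 counts in Dnmt3C KO/KO against 408 to 485 in wild-type spermatogonia and 7144 to 12018 against 177 to 405 in spermatocytes. Replicates 1 and 4 of the spermatocytes were the closest pair within each genotype, with a chi-square per degree of freedom of 14.5 in Dnmt3C KO/KO and 19.7 in wild-type against 172 or more for the other pairs. They still differed beyond sampling noise, which technical repeats can also do. The labels list them as separate samples, and while the methods speak of 3 collections for each genotype in one place, the number of samples sequenced elsewhere in them comes to 4 for each stage and genotype. Whether the 2 libraries are independent is not known. With replicates 1 and 4 summed, 26 of 31 members tested in spermatocytes were called in place of 29, with 20 testis members lower and the 4 widely expressed members higher in both cases. Over all genes 8758 of 22276 tested were called, in place of 12885 of 21919.

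Markers of other cells moved with genotype in the spermatocyte sort, as sums of CPM over lists of marker genes. Of all 21919 genes tested in this comparison, edgeR called 28% higher and 30.7% lower. The 10 pachytene markers summed to between 8057 and 15800 CPM in wild-type and to between 189 and 456 in Dnmt3C KO/KO, and 9 of 10 were called lower. The 11 spermatid markers summed to between 87.1 and 1665 CPM in wild-type against 5.82 to 13.4, and 11 of 11 were called lower. Spermatogonia markers summed to between 92.7 and 313 CPM in wild-type against 489 to 1195 in Dnmt3C KO/KO, with 7 of 10 called higher. The 7 peritubular and stromal markers stood at 49.3 to 62.9 CPM in wild-type and at 5290, 4592, 488.3 and 4721 CPM in Dnmt3C KO/KO replicates 1 to 4, with 6 called higher. Macrophage markers ranged from 3.21 to 5.87 CPM against 22.8 to 109, with 7 of 7 called higher, and Leydig markers from 14.3 to 29.6 against 55.3 to 344, with 6 of 7 called higher. The 8 Sertoli markers ranged from 47.2 to 147 CPM against 104.8 to 390.2, with 1 called higher by edgeR and 6 by DESeq2 (all genes by DESeq2: 7891 of 36782). The 10 early meiotic markers ranged from 3450 to 4012 CPM against 1953 to 3181, with 3 called higher and 3 lower, near the shares of all genes. Of 4 erythroid markers, edgeR tested 2 and called 0, with 0 at an unadjusted p under 0.05 and 0 called by DESeq2, and their sum ranged from 1.14 to 9.49 CPM over both genotypes. Of the called markers, 8 of the spermatid list, 5 of the macrophage list and 1 each of the pachytene, spermatogonia, stromal and Leydig lists passed the filter through the genotype in which they are high alone, which fixed their direction. As scores, the mean log2(CPM + 0.5) over a list, the spermatocyte genotypes differed by -5.43 for pachytene, -5.19 for spermatid, 4.09 for stromal, 2.65 for Leydig, 2.50 for macrophage and 2.35 for spermatogonia markers, Dnmt3C KO/KO minus wild-type, each with an exact two-sided permutation p of 0.0286 (0.0857 after Benjamini-Hochberg adjustment over 18 tests), the smallest that 4 against 4 libraries allow. The same test of 3 against 3 spermatogonia libraries could not go below 0.1, and neither could the spermatocyte test if replicates 1 and 4 are not independent. The scores were not computed with those 2 libraries summed. The Sertoli (1.45, p = 0.0857), early meiotic (0.42, p = 0.114) and erythroid (0.46, p = 0.4) scores had larger exact permutation p-values. The part of these cells in the ADAM values was not tested.

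The testis members differ from the rest in gene structure and place. In GENCODE M21 (GRCm38), 13 of the 21 testis members lie on chromosome 8 and 14 of 21 have 1 to 3 exons in their longest transcript, whereas the widely expressed members have 16 to 24 exons and those of other tissues 17 to 30. A run of 5 members, Adam18, Adam3, Adam5, Adam32 and Adam9, fills chr8:24602246-25016927 on the minus strand, with gaps of 2469, 1240, 11770 and 806 bp between neighbours. The first 4 are testis genes with 20 to 22 exons and the last is widely expressed. Another testis gene with many exons, Adam2, lies at chr14:66027329-66077733 on the minus strand and has 21.

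Some members resemble each other closely enough for reads to be split between copies. Of all windows of about a read's length in the exons of Adam1a, 76.4% were also found in another gene, since its exons overlap those of Mapkapk5 and Gm42878 on the same strand. The share was 30.2% for Adam1b and between 11.6% and 17.7% for Adam6a, Adam6b, Adam20, Adam25, Adam26a, Adam26b and Adam39, while it ranged from 0 to 5.08% for the others. Counts of Adam1a and Adam1b, and the split of counts within those testis groups, are uncertain for that reason. Adam4 overlaps Cox16 and Gm20498, and Adam34 overlaps Gm5347 and Gm35629, on the same strand.

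The 250 bases upstream of the start site are shown for 4 testis members and for 2 widely expressed ones, because the classes differ in their CG dinucleotides, the sites that DNA methylation acts on. The sequences are from RefSeq on GRCm38, read 5′ to 3′ on the strand of the gene, and each CG is in capitals. The testis members shown are Adam1b at chr5:121503436-121503685 (minus strand), Adam25 at chr8:40751958-40752207 (plus), Adam6a at chr12:113543658-113543907 (plus) and Adam21 at chr12:81568475-81568724 (minus). The widely expressed ones are Adam10 at chr9:70678732-70678981 (plus) and Adam17 at chr12:21373633-21373882 (minus).
Adam1b: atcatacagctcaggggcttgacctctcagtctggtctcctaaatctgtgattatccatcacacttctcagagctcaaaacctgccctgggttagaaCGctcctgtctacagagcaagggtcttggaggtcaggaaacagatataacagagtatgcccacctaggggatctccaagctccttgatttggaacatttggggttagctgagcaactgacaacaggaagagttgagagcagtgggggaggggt
Adam25: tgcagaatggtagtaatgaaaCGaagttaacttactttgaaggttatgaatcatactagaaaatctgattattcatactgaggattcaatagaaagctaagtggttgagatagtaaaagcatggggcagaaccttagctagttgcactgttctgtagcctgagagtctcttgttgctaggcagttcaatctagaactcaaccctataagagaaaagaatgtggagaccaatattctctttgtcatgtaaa
Adam6a: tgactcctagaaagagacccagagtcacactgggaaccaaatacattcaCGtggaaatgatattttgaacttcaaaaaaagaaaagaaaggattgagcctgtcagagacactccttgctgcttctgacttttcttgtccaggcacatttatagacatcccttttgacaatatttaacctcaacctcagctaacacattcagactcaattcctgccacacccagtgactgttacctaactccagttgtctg
Adam21: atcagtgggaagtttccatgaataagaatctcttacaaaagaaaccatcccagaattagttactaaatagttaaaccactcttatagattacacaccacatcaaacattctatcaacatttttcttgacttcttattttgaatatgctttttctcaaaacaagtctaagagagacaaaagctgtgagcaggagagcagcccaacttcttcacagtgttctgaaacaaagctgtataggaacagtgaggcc
Adam10: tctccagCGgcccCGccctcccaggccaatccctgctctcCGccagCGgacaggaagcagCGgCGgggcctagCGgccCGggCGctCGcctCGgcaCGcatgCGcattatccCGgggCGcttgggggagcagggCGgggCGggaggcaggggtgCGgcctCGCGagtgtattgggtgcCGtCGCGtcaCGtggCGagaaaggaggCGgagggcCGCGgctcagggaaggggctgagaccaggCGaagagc
Adam17: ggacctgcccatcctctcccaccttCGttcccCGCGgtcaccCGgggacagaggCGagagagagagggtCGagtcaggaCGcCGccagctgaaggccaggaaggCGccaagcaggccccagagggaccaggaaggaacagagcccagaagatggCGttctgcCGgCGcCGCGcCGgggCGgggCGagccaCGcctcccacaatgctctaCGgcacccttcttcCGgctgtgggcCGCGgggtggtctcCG

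In these 250 bases, Adam10 holds 29 CG dinucleotides and Adam17 holds 23, while Adam1b, Adam25 and Adam6a hold 1 each and Adam21 holds 0. Over the 17 members with a RefSeq start site in their gene or at most 1000 bp outside it, the 10 testis members had a median of 1 CG (0 to 4) and the 3 widely expressed members a median of 23 (18 to 29). The 4 members of other tissues ranged from 4 to 27. All 32851 RefSeq promoters had a median of 6, with quartiles of 2 and 16. The promoters were searched on both strands for a cyclic AMP response element (TGACGTCA, in 1.55% of all promoters), an X-box core (GTTGCCA, in 3.66%), a TATA box (TATAAA, in 12.4%) and an NRF1 site (in 3.74%). The TATA letters occurred in Adam29, Adam6a and Adam6b and the X-box letters in Adam26b, and the other letters were found in none of the 17.

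In spermatocytes the testis members fell together. Summed over the 21 testis members, the level was 7216, 3649, 3131 and 7374 CPM in wild-type replicates 1 to 4 and 35.5, 19.4, 24.9 and 42.5 CPM in Dnmt3C KO/KO. The groups did not overlap, and wild-type replicates 2 and 3 were the lower ones of their group. Of the 20 testis members that could be tested, 20 were called lower and none higher, where 30.7% of all 21919 genes tested were called lower and 28% higher. Of the 20, 15 passed the filter on low counts through the wild-type libraries alone, where they are high, so that their direction was fixed by the filter and the count lends no support by itself. The 5 that passed in both genotypes were Adam1a, Adam2, Adam5, Adam30 and Adam32. All 21 testis members had groups that did not overlap, against 68.1% of all genes tested. The median fitted log2 fold change of the 20 was -8.79, or -7.09 with 9 members set at the bound that their counts allow, against 0.11 for all genes. With library totals in place of TMM the median of all genes rose to 0.79, 8074 genes were called higher and 4880 lower in place of 6145 and 6740, and 19 of the 20 testis members were still called lower, Adam1a losing its call.

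Adam5, a testis gene with 21 exons, was the most abundant. Its level was 2096, 1330, 952.5 and 2192 CPM in the 4 wild-type spermatocyte libraries and 4.94, 0.34, 1.15 and 8.84 CPM in the Dnmt3C KO/KO libraries. Every wild-type library lay above every Dnmt3C KO/KO library, and the log2 fold change was -8.71 (SE 1.03, adjusted p = 7.17e-05, edgeR). Adam2, the fertilin beta subunit, stood at 1291, 850.2, 647.5 and 1296 CPM in wild-type and at 6.89, 2.39, 5.15 and 7.17 CPM in Dnmt3C KO/KO. Its fold change of -7.52 on the log2 scale had the smallest adjusted p of the family (SE 0.47, adjusted p = 3.08e-06). Adam3, also called cyritestin, had 1424, 427.4, 539.4 and 1452 CPM in wild-type and 2.97, 0.15, 0.98 and 4.86 CPM in Dnmt3C KO/KO. Again the groups were far apart, with a log2 fold change of -8.71 (SE 1.06, adjusted p = 8.14e-05). Without Dnmt3C KO/KO replicate 4 the value of Adam5 was -9.53 and that of Adam3 -9.41.

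The fertilin alpha genes behaved unequally. Adam1b, whose protein pairs with ADAM2 on sperm, had 440.8, 135.1, 140.5 and 464.1 CPM in wild-type and 0.93, 0.05, 0.42 and 1.21 CPM in Dnmt3C KO/KO, a log2 fold change of -8.79 (SE 0.92, adjusted p = 3.44e-05). Adam1a, whose protein pairs with ADAM2 inside testicular germ cells, had 45.7, 35, 55.8 and 43 CPM in wild-type and 14.8, 15.3, 14.8 and 14.6 CPM in Dnmt3C KO/KO. Its groups did not overlap either, but its log2 fold change was only -1.55 (SE 0.23, adjusted p = 0.000251), and its Dnmt3C KO/KO level was close to that of spermatogonia, which ranged from 13.8 to 17.9 CPM over both genotypes. The overlap of Adam1a with Mapkapk5 touches these counts, and its part was not tested.

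Several members of low abundance fell to the floor of detection. Adam6a, whose protein travels with ADAM2 and ADAM3, had 255, 48, 617 and 201 counts in wild-type and 0, 0, 3 and 0 in Dnmt3C KO/KO, at least 136-fold lower when 3 counts per library are taken as the floor. Its near copy Adam6b had 192, 35, 438 and 167 counts in wild-type and 0 in all 4 Dnmt3C KO/KO libraries, at least 102-fold lower. Both genes were lowest in wild-type replicate 2 and highest in replicate 3, with no overlap with Dnmt3C KO/KO.

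Adam20, Adam24 and Adam25 code for the testase group of ADAM proteins and their relatives, and none of them had more than 1 count in a Dnmt3C KO/KO library. Adam24 had 795, 126, 1461 and 611 counts in wild-type and 0, 0, 1 and 0 in Dnmt3C KO/KO, at least 371-fold lower. Adam20 had 499, 68, 856 and 435 counts in wild-type and 0 in every Dnmt3C KO/KO library, at least 233-fold lower. For Adam25 the counts were 236, 35, 481 and 227 against 0 in each, at least 122-fold lower. In all of them the Dnmt3C KO/KO group was at or under the floor, so that the fitted values depend on the prior count and are not given.

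The other testis members kept to the same direction. Adam32, Adam30 and Adam18 had log2 fold changes of -8.89 (SE 0.73, adjusted p = 8.74e-06), -7.09 (SE 0.60, adjusted p = 1.04e-05) and -8.81 (SE 1.08, adjusted p = 8.46e-05). Adam4 had a log2 fold change of -5.12 (SE 0.78, adjusted p = 0.000302) and Adam21 of -4.84 (SE 1.04, adjusted p = 0.0021), and these were -4.42 without wild-type replicate 3 and -5.92 without Dnmt3C KO/KO replicate 3. Those at the floor in Dnmt3C KO/KO were Adam39, at least 119-fold lower, Adam29 at least 109-fold (69.7-fold without wild-type replicate 3), Adam26b at least 57.7-fold and Adam34 at least 53.2-fold. Adam34l, at least 23.3-fold lower, had 3 to 69 counts in wild-type and 0 in Dnmt3C KO/KO and did not pass the filter on low counts. Adam26a was called lower (adjusted p = 0.000313), with 504, 63, 748 and 434 counts in wild-type and 8, 0, 0 and 0 in Dnmt3C KO/KO. Among the 5 testis members that passed the filter in both genotypes, Adam2, Adam5, Adam30 and Adam32 kept their call under each of the 18 alternatives run for spermatocytes, and Adam1a did not.

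**Figure D1:**
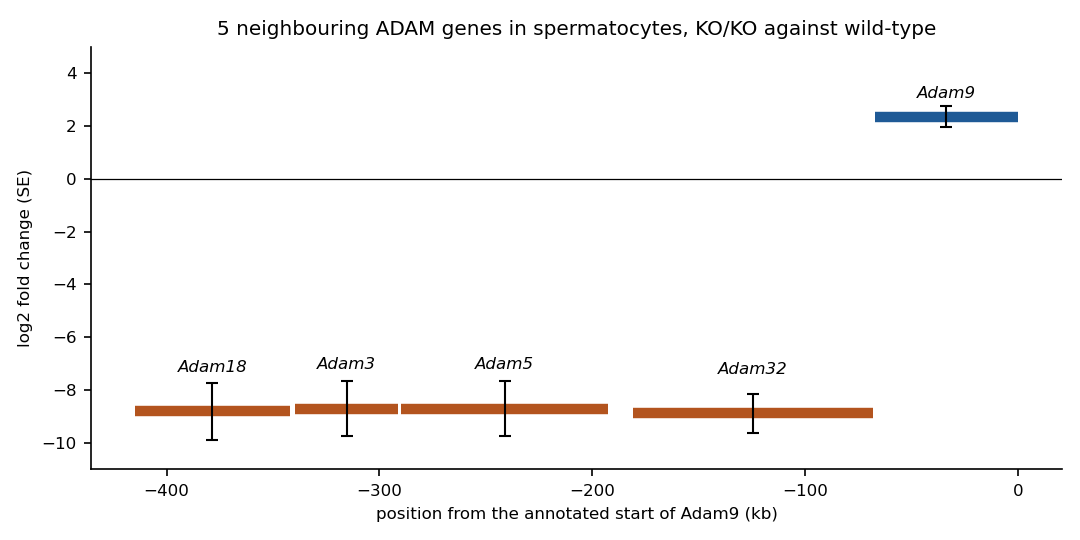
Log2 fold change of Dnmt3C KO/KO against wild-type spermatocytes (vertical axis, bars for the SE) for 5 neighbouring genes, drawn as blocks over their length, with the distance from the start of Adam9 in kb on the horizontal axis. The 4 testis genes lie between -8.71 and -8.89, and Adam9, 806 bp beyond Adam32, lies at 2.36.

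**Figure D2:**
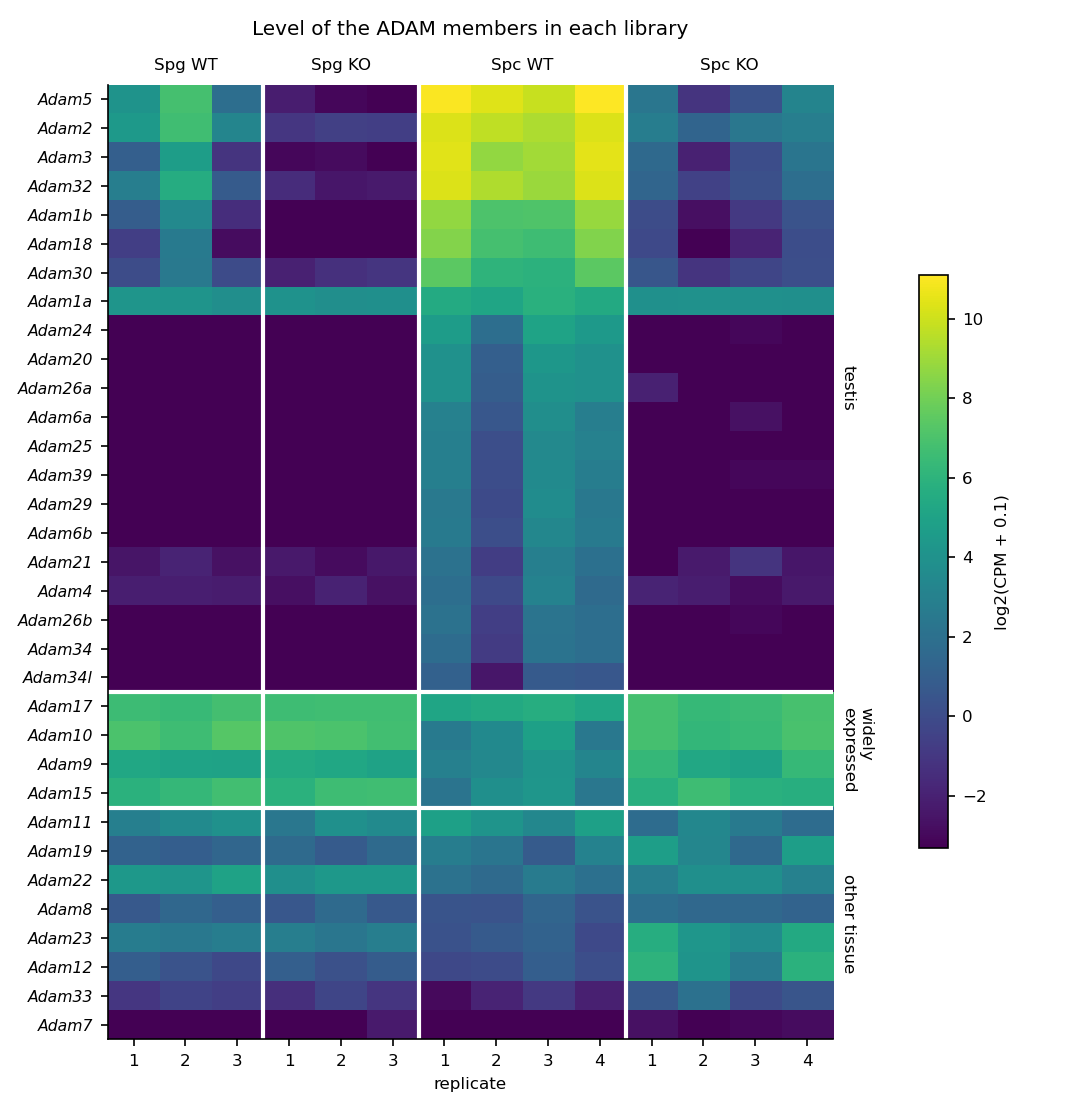
Level of each ADAM member in each of the 14 libraries as log2(CPM + 0.1), with the 33 members as lines and the libraries as columns by group. The testis members reach their highest levels in the 4 wild-type spermatocyte libraries, and the widely expressed members are lower there than in the other 3 groups.

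The widely expressed members went the other way. Their summed level was 53.4, 79.5, 118 and 56.4 CPM in wild-type spermatocytes and 362, 292, 263 and 377 CPM in Dnmt3C KO/KO. The groups did not overlap (68.1% of all genes tested did not), and 4 of 4 members were called higher (all genes: 28%). Adam10 had 5.81, 11.3, 29.7 and 5.36 CPM in wild-type and 113, 74.9, 84 and 127 CPM in Dnmt3C KO/KO. Wild-type replicate 3 was the highest of its group and still lay below every Dnmt3C KO/KO library, and the log2 fold change was 2.98 (SE 0.54, adjusted p = 0.000848, edgeR), or 3.79 without that wild-type library.

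Adam17 changed least of the widely expressed members, from 35.3, 43.1, 50.9 and 36.5 CPM in wild-type to 115, 80, 90.4 and 118 CPM in Dnmt3C KO/KO, a log2 fold change of 1.33 (SE 0.21, adjusted p = 0.000407). Adam9, which codes for meltrin gamma, had 7.72, 10.6, 18.4 and 9.3 CPM in wild-type and 78.6, 39.9, 31.8 and 79.8 CPM in Dnmt3C KO/KO, a log2 fold change of 2.36 (SE 0.40, adjusted p = 0.000561). Adam15 had 4.53, 14.5, 19 and 5.18 CPM in wild-type and 54.9, 97.7, 56.6 and 52.5 CPM in Dnmt3C KO/KO, a log2 fold change of 2.65 (SE 0.49, adjusted p = 0.000938). In Dnmt3C KO/KO, Adam9, Adam10 and Adam17 were highest in replicates 1 and 4, and Adam15 in replicate 2. All 4 genes kept their call under every one of the 18 alternatives, and none of these values turned its direction when the scaling was changed.

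Members known from other tissues were called higher in 4 cases and lower in 1, of 7 tested (all genes: 28% and 30.7%). Adam12, which codes for meltrin alpha of muscle and connective tissue, had 0.78, 0.90, 1.85 and 1.02 CPM in wild-type and 64.9, 17.2, 6.36 and 58.7 CPM in Dnmt3C KO/KO. The rise of 5.05 on the log2 scale (SE 0.76, adjusted p = 0.000269) was the largest of the family. Adam23, a neuronal member without protease activity, had 1.13, 1.59, 2.21 and 0.81 CPM in wild-type and 50.1, 19.3, 12.5 and 43.2 CPM in Dnmt3C KO/KO, a log2 fold change of 4.48 (SE 0.56, adjusted p = 9.28e-05). Adam33, a mesenchymal member, had 0.03, 0.17, 0.43 and 0.14 CPM against 1.52, 4.07, 0.87 and 1.31 CPM, a log2 fold change of 3.30 (SE 0.74, adjusted p = 0.00274). It passed the filter on low counts through the Dnmt3C KO/KO libraries alone, which fixed its direction, and its value was 2.65 without Dnmt3C KO/KO replicate 2 and 4.11 without wild-type replicate 3. None of the 3 overlapped between genotypes, against 68.1% of all genes tested that did not. Adam12 was lowest in Dnmt3C KO/KO replicate 3, the library in which the stromal marker sum was also lowest at 488.3 CPM, and whether the 2 are linked was not tested.

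Adam22, a neuronal relative of Adam23, was called higher with a log2 fold change of 1.39 (SE 0.38, adjusted p = 0.00829), and Adam11, a member of the same subgroup, was called lower with -1.88 (SE 0.49, adjusted p = 0.00619). These calls were the least steady. Adam22 was called in 9 of the 18 alternatives and Adam11 in 10 of 18, and the counts of Adam11 overlapped, at 438 to 944 in wild-type and 166 to 590 in Dnmt3C KO/KO. Adam8, a gene of white blood cells, had a log2 fold change of 0.94 (adjusted p = 0.0502) and Adam19, or meltrin beta, of 1.67 (adjusted p = 0.0522), and neither was called. Adam7, a gene of the epididymis, had at most 3 counts in any spermatocyte library and was not tested.

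**Figure D3:**
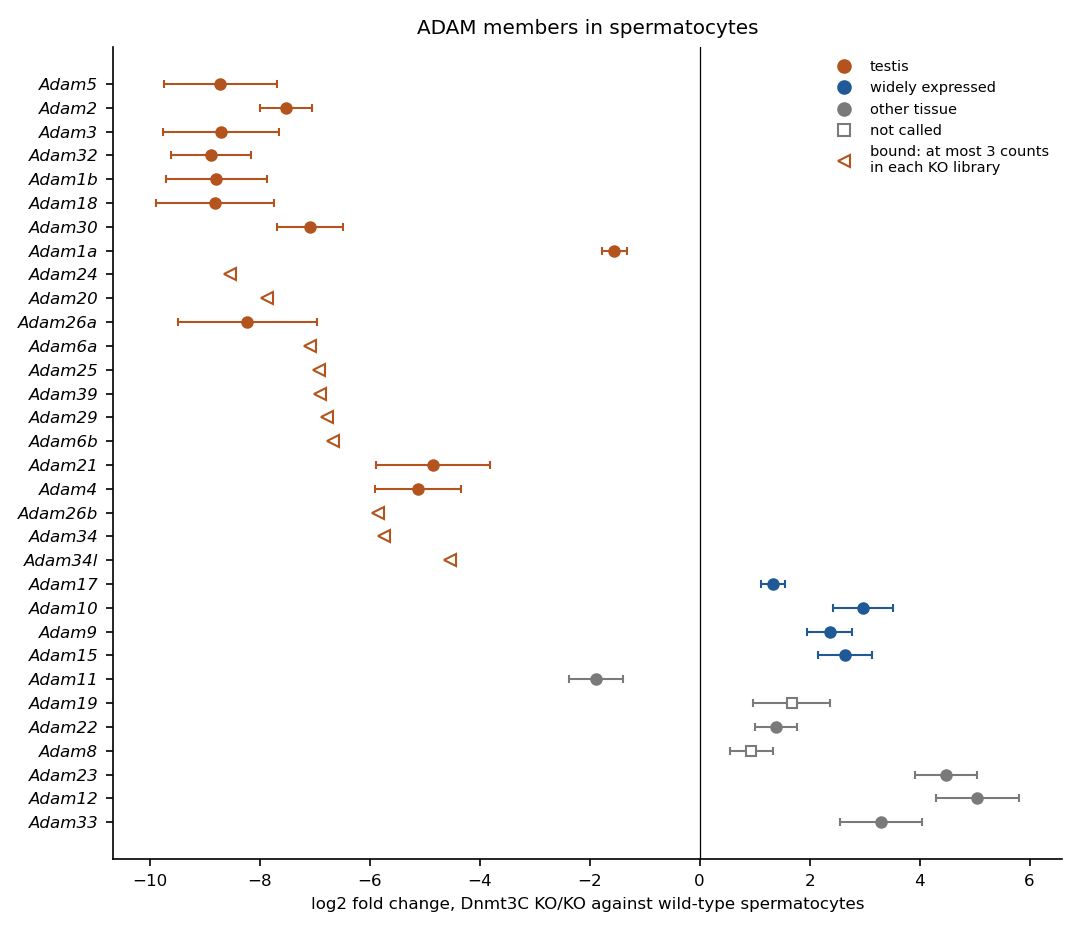
Log2 fold change of Dnmt3C KO/KO against wild-type spermatocytes (horizontal axis, bars for the SE) for 32 members, with open squares for members that were not called and open triangles for bounds where each Dnmt3C KO/KO library had at most 3 counts. The 21 testis members lie left of 0, with Adam1a nearest to it, and the 4 widely expressed members lie between 1.33 and 2.98.

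In spermatogonia no member was called changed by edgeR. Of 18 members tested (7 testis, 4 widely expressed and 7 of other tissues), 0 were called in either direction, where 0.0436% of all 20659 genes tested were called. At an unadjusted p under 0.05, 6 of the 7 testis members were lower and no other member passed, where 5.55% of all genes tested were lower at that p. Of the 7, 5 passed the filter through the wild-type libraries alone (Adam5, Adam32, Adam3, Adam1b and Adam30), which fixed their direction, so that the count is a description. Adam2 and Adam1a passed in both genotypes. The 6 had groups that did not overlap, and so did Adam18, which was not tested, against 12.9% of all genes tested. DESeq2 called the same 6 lower (Adam2, Adam5, Adam32, Adam3, Adam1b and Adam30), where it called 1.37% of all genes lower. With the replicate number as a block edgeR called 4 members lower (Adam2, Adam5, Adam3 and Adam1b), where it called 0.392% of all genes lower. The labels do not state that libraries of the same number are paired. The median fitted log2 fold change of the 7 testis members was -6.92, or -6.41 with 2 members at their bound, against 0.02 for all genes.

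Adam2 had 21.1, 103 and 9.44 CPM in wild-type spermatogonia replicates 1 to 3 and 0.39, 0.57 and 0.54 CPM in Dnmt3C KO/KO. The groups did not overlap, the 3 wild-type libraries differed widely among themselves, and the log2 fold change was -6.41 (SE 0.96, adjusted p = 0.0493, edgeR). With the replicate block the value was -5.81 (adjusted p = 0.00627), and by DESeq2 it was -6.42 (adjusted p = 1.34e-08). Leaving out wild-type replicate 2 gave -4.84 (adjusted p = 0.00759) and leaving out wild-type replicate 3 gave -6.89 (adjusted p = 0.00984), and in each of these fits Adam2 was the 1 member called. In the other 4 fits that left out 1 library it was not called, with adjusted p from 0.0423 to 0.363 and the highest without Dnmt3C KO/KO replicate 3.

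Adam5 had 911, 5356 and 189 counts in wild-type spermatogonia and 7, 1 and 0 counts in Dnmt3C KO/KO, a log2 fold change of -9.82 (SE 1.67, adjusted p = 0.0612). The block gave -9.49 (adjusted p = 0.00191), and the value was -7.64 without wild-type replicate 2 and -11.91 without Dnmt3C KO/KO replicate 1. Adam3 had 109, 1209 and 18 counts in wild-type against 1, 2 and 0, at least 183-fold lower (adjusted p = 0.13, and 0.000748 with the block), or at least 22.4-fold without wild-type replicate 2. Adam1b had 98, 495 and 14 counts in wild-type and 0 in all 3 Dnmt3C KO/KO libraries, at least 81.9-fold lower (adjusted p = 0.176, and 0.00598 with the block), or at least 19.8-fold without wild-type replicate 2. In each of these genes the lowest wild-type library lay above the highest Dnmt3C KO/KO library.

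Adam32 had a log2 fold change of -6.92 (SE 1.34, adjusted p = 0.0919) and Adam30 of -3.12 (SE 0.82, adjusted p = 0.223), and without wild-type replicate 2 these were -4.79 and -1.65. Adam18 had 29, 277 and 2 counts in wild-type spermatogonia and 0 in Dnmt3C KO/KO, at least 42.1-fold lower by the group means, and was not tested. Wild-type replicate 2 sets that bound, and without it the bound was 5.46-fold. Adam1a stood at 17.9, 17.7 and 13.8 CPM in wild-type and 16.3, 14 and 14.4 CPM in Dnmt3C KO/KO, a log2 fold change of -0.08 (adjusted p = 1). Adam4 and Adam21 had at most 9 counts in any spermatogonia library and were not tested.

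Wild-type replicate 2 carried most of the testis ADAM signal of the spermatogonia. The 21 testis members summed to 68.4, 335.5 and 30.3 CPM in wild-type replicates 1 to 3 and to 17.4, 15.2 and 15.5 CPM in Dnmt3C KO/KO. Relative to the mean of replicates 1 and 3, wild-type replicate 2 was 22.4 times as high for Adam3, 21.1 times for Adam18, 11.5 times for Adam5 and 6.78 times for Adam2, but 1.11 times for Adam1a. The pachytene marker sum took the same order in wild-type, with 471.8, 1612 and 231.2 CPM, and was 148, 123 and 119.5 CPM in Dnmt3C KO/KO, and its part in the ADAM values was not tested. The pachytene score differed by -1.69 (exact permutation p = 0.1, the smallest that 3 against 3 libraries allow), and those of the other marker lists by -0.35 to 0.21. Of the 10 pachytene markers, 5 were lower at an unadjusted p under 0.05 (all genes: 5.55%), of which Spata16 and Pgk2 passed the filter through the wild-type libraries alone, and DESeq2 called 4 lower (all genes: 1.37%). Of the 10 early meiotic markers, 3 were lower at that p, or 5 with the replicate block, and none was called. The 11 spermatid markers summed to between 5.11 and 6.40 CPM in wild-type and to between 5.17 and 5.94 CPM in Dnmt3C KO/KO spermatogonia, with 6 to 8 and 7 to 9 of them detected in a library, and Prm1, Prm2 and Tnp2 were at 0 in wild-type.

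The widely expressed members were level between genotypes at this stage. Their sum was 325, 290.4 and 401.5 CPM in wild-type spermatogonia and 342, 369 and 343 CPM in Dnmt3C KO/KO, with overlap in every gene. Adam10 had 132, 96.4 and 155 CPM in wild-type and 142, 127.5 and 107.5 CPM in Dnmt3C KO/KO, a log2 fold change of 0.05 (SE 0.19, adjusted p = 1), and its sign turned when Dnmt3C KO/KO replicate 1 or wild-type replicate 2 was left out. Adam17 had 95.9, 82.4 and 110.5 CPM against 96.4, 103 and 101 CPM, a log2 fold change of 0.13 (SE 0.13). For Adam9 the levels were 38.5, 33 and 31.7 CPM against 44.3, 39 and 31.3 CPM, a log2 fold change of 0.22 (SE 0.18), and for Adam15 they were 59.1, 78.5 and 104 CPM against 59.7, 99.8 and 103 CPM, a log2 fold change of 0.19 (SE 0.26). The 7 tested members of other tissues had fitted log2 fold changes from -0.27 to 0.38, and none reached an unadjusted p under 0.05. Adam7 had 0 counts in wild-type and 0, 0 and 6 in Dnmt3C KO/KO and was not tested.

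The difference between the genotype effect in spermatocytes and that in spermatogonia was tested for the 21 members that passed the filter over both tables, and 8 were called. The effect was higher in spermatocytes for 5 of them and lower for 3, where 11.1% of all 24340 genes tested were called higher and 14.6% lower. In the same test 4 of 7 stromal and 3 of 7 macrophage markers were called higher, and 5 of 10 pachytene and 7 of 10 spermatid markers lower. Of 10 early meiotic markers 1 was called higher and 1 lower, and no marker of the other lists was called. The groups through which these markers passed the filter were not examined, and their part in the ADAM values was not tested. Adam12 had a difference of 4.60 on the log2 scale (adjusted p = 0.00201, edgeR), since its spermatogonia held 1.85, 1.20 and 0.77 CPM in wild-type and 1.95, 1.09 and 1.73 CPM in Dnmt3C KO/KO, with overlap. Adam23 had a difference of 4.31 (adjusted p = 0.000442), with 6.46, 5.44 and 6.77 CPM in wild-type spermatogonia against 7.19, 4.87 and 7.15 CPM. The widely expressed Adam10, Adam9 and Adam17 had differences of 2.85 (adjusted p = 0.00539), 2.07 (adjusted p = 0.00615) and 1.14 (adjusted p = 0.00661), with 3.67 for Adam10 without wild-type spermatocyte replicate 3, while Adam15, at 2.38 (adjusted p = 0.0105), was not called.

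On the lower side, Adam4 had a difference of -4.75 (adjusted p = 0.00383), with 7, 6 and 6 counts in wild-type spermatogonia against 3, 9 and 3 in Dnmt3C KO/KO, and 116, 28, 364 and 87 counts in wild-type spermatocytes against 9, 7, 2 and 5. Its spermatogonia counts were too low for a test of their own, and the difference draws on them as well as on the spermatocyte libraries. Adam4 passed the filter through wild-type spermatocytes alone, which fixed its direction, and its value is a description. It was -3.96 without Dnmt3C KO/KO spermatogonia replicate 2 (adjusted p = 0.0247, edgeR, not called) and -4.06 without wild-type spermatocyte replicate 3 (adjusted p = 0.00321). Adam30, a single-exon testis gene, had a difference of -4.03 (adjusted p = 0.00513), with 0.92, 5.57 and 0.88 CPM in wild-type spermatogonia against 0.15, 0.29 and 0.36 CPM, and 175, 66.5, 61.3 and 175 CPM in wild-type spermatocytes against 1.33, 0.34, 0.70 and 1.03 CPM. Without wild-type spermatogonia replicate 2 its difference was -5.40. Adam1a had a difference of -1.53 (adjusted p = 0.00173). Among the 10 testis members tested, the remaining 7 were not called, and the fitted differences of the family's testis members ranged from -4.75 to 1.78. The SE was 2.82 for Adam1b and 1.99 for Adam18, so that these differences are poorly determined. With library totals the median difference of all genes moved from 0.20 to 0.90, the all-gene split from 2690 higher and 3561 lower to 4252 and 1733, and the members called from 5 higher and 3 lower to 8 higher and none lower. With the replicate block 5 members were called (all genes: 5977 in place of 6251). Of the 8, Adam10, Adam23, Adam1a and Adam30 kept their call, Adam12 (adjusted p = 0.0139), Adam4 (0.0181), Adam17 (0.0211) and Adam9 (0.0227) lost it, and Adam15 (0.00432) gained one. Leaving out Dnmt3C KO/KO spermatogonia replicate 2 left 3 calls, and leaving out Dnmt3C KO/KO spermatogonia replicate 3, wild-type spermatogonia replicate 1 or wild-type spermatogonia replicate 3 left 4 each, while without wild-type spermatocyte replicate 1 there were 5. Calls over all genes fell from 6251 to 4095, 3793, 3973, 4246 and 4728 in these fits, in that order. No widely expressed member was called without Dnmt3C KO/KO spermatogonia replicate 2 or 3, or with spermatocyte replicates 1 and 4 summed, a setting that left 4 calls (all genes: 3521). Adam23 was called in 25 of 25 alternatives, Adam12 and Adam1a in 24, Adam10 in 20, Adam4 in 19 of 24, Adam9 in 17, Adam17 in 16 and Adam30 in 15 of 25.

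In the wild-type, the classes parted between the stages. Of the 10 testis members tested, 10 were called higher in spermatocytes than in spermatogonia, where 29.2% of all 24340 genes were called higher and 23.3% lower. Their median log2 fold change was 5.58, against 0.02 for all genes. Of the 10, Adam18, Adam21 and Adam4 passed the filter on low counts through wild-type spermatocytes alone, which fixed their direction, so that the count and the median are a description. The other 7 passed in wild-type spermatogonia as well. Adam18, known as tMDC III, had 0.53, 6.03 and 0.04 CPM in wild-type spermatogonia and 341, 114, 98.2 and 336 CPM in wild-type spermatocytes, a log2 fold change of 6.79 (adjusted p = 0.00166, edgeR). Adam3 rose from 2, 26.3 and 0.35 CPM in wild-type spermatogonia to the spermatocyte values given above, a log2 fold change of 6.78 (adjusted p = 0.000829). Adam1b rose from 1.80, 10.8 and 0.27 CPM by 6.23 on the log2 scale (adjusted p = 0.000828). In these genes replicate 2 was the highest of the spermatogonia libraries, and without it the values of Adam18, Adam3 and Adam1b were 9.57, 9.66 and 8.14, while without wild-type spermatogonia replicate 3 they were 6.07, 6.07 and 5.54. Without replicate 1, Adam18 had 6.19 and Adam3 had 6.16. The others ranged from 5.74 for Adam32 down to 1.57 for Adam1a. Without wild-type spermatogonia replicate 2, Adam32 had 7.72, Adam5 7.32 in place of 5.30, Adam30 7.03 in place of 5.73 and Adam2 6.05 in place of 4.65. Without replicate 3, Adam32 had 5.05, Adam5 4.61 and Adam2 4.02. The 11 testis members that the spermatogonia table does not list were between at least 22-fold (Adam34l) and at least 351-fold (Adam24) higher in spermatocytes, with 3 counts per library as the floor.

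All 4 widely expressed members were called lower in wild-type spermatocytes than in wild-type spermatogonia (all genes: 23.3%). With spermatocyte replicates 1 and 4 summed, or without wild-type spermatocyte replicate 1 or 4, Adam9 was not called and the other 3 were. Adam10 fell by 3.15 on the log2 scale (adjusted p = 0.000119, and a log2 fold change of -3.96 without wild-type spermatocyte replicate 3), Adam15 by 2.75 (adjusted p = 0.000203), Adam9 by 1.44 (adjusted p = 0.00301) and Adam17 by 1.09 (adjusted p = 0.000364). Of the other tissues, Adam22 fell from 20.4, 18.2 and 31.5 CPM in spermatogonia to 4.19, 3.12, 6.25 and 3.88 CPM in spermatocytes, by 2.30 on the log2 scale (adjusted p = 9.75e-05), and Adam23 by 1.97 (adjusted p = 0.00193). The spermatogonia and spermatocyte libraries came from mice of different age and from different sorts, so that stage, age and sort cannot be told apart. With library totals the median of all genes moved from 0.02 to -0.76 and the split of all calls from 7103 higher and 5674 lower to 4541 and 8724, and 15 of the 16 members kept their call, with no direction turned.

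Between the stages of Dnmt3C KO/KO, 3 of 21 members tested were called higher in spermatocytes and none lower, where 3.01% of all genes were called higher. Adam12 had a log2 fold change of 4.57 (SE 0.75, adjusted p = 0.00215, edgeR), Adam2 of 3.47 (SE 0.70, adjusted p = 0.00797) and Adam23 of 2.33 (SE 0.49, adjusted p = 0.00972), from the levels given above. Against the wild-type rise of Adam2 from 9.44 to 103 CPM up to 648 to 1296 CPM, the Dnmt3C KO/KO libraries went from 0.39 to 0.57 CPM up to 2.39 to 7.17 CPM. Between the same Dnmt3C KO/KO groups the stromal marker sum went from 32.9 to 42.4 CPM up to 488 to 5290 CPM. The macrophage sum went from 0.90 to 1.49 up to 22.8 to 109 CPM, and the Leydig sum from 5.93 to 12.4 up to 55.3 to 344 CPM. The Sertoli sums overlapped, at 178.5 to 512 against 104.8 to 390 CPM. Their part in the ADAM values was not tested. The widely expressed members were not called, with log2 fold changes of -0.29 for Adam10, -0.37 for Adam15, 0.63 for Adam9 and 0.05 for Adam17, the last of which turned its sign under several alternatives. At an unadjusted p under 0.05, 11 of 21 members were higher, 7 of them testis members, where 17.9% of all genes were higher at that p, and DESeq2 called 9 higher, where it called 6.71% of all genes. Against Dnmt3C KO/KO spermatogonia at the floor, Adam3 was at least 42.9-fold, Adam1b at least 12.5-fold and Adam18 at least 9.29-fold higher in Dnmt3C KO/KO spermatocytes, and without Dnmt3C KO/KO spermatocyte replicate 4 the bound of Adam3 was 26.2-fold. The stage effect of Dnmt3C KO/KO minus that of wild-type is the difference tested above, which was not called for 7 of the 10 testis members. A difference that was not called does not show equal effects. In simulated data that test recovered 10.4% of changes of 2 and 52.2% of changes of 3 on the log2 scale. No member was called without Dnmt3C KO/KO spermatogonia replicate 1, 2 or 3, and 1 was called without wild-type spermatogonia replicate 1, Dnmt3C KO/KO spermatocyte replicate 1 or 4, or wild-type spermatocyte replicate 1 or 2. Calls over all genes fell from 742 to 216, 157 and 112 without Dnmt3C KO/KO spermatogonia replicate 1, 2 and 3. In the fits that left 1 member called they ranged from 379 to 644.

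**Figure D4:**
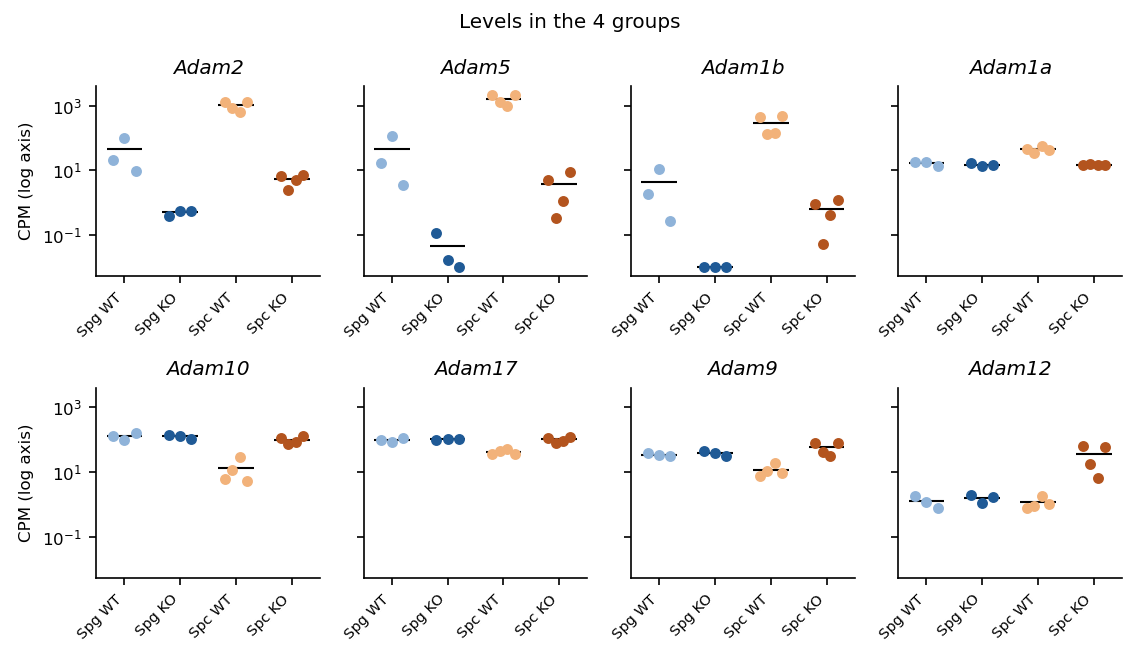
CPM on a log axis in each library of the 4 groups for 8 members, with a line at the group mean and values under 0.01 drawn at 0.01. Adam2, Adam5 and Adam1b are highest in wild-type spermatocytes and lower in both Dnmt3C KO/KO groups than in their wild-type groups, while Adam10, Adam17 and Adam9 are lowest in wild-type spermatocytes and Adam12 is high in Dnmt3C KO/KO spermatocytes alone.

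Per kilobase of exon, the order of the members in wild-type spermatocytes was led by 4 testis genes. Adam5 stood at 525 ± 192 CPM per kb (SD, n = 4), Adam2 at 379.5 ± 121, Adam3 at 327 ± 188 and Adam32 at 315 ± 143, and the intervals of 1 SD of these neighbours overlapped. A step below them came Adam18 at 94.1 ± 56.9 and Adam1b at 88.4 ± 54.5 CPM per kb, which did not differ beyond their spread, and then Adam30 at 33.8 ± 18.2. Adam24 (7.22 ± 4.33), Adam1a (5.98 ± 1.15) and Adam17 (5.79 ± 1.00) followed, close together. With the longest transcript as length in place of all exons, Adam32 (384) came before Adam3 (350), and Adam1a (9.38) and Adam17 (9.28) came before Adam24 (7.22). The lowest testis member was Adam34l at 0.56 CPM per kb. Summed over classes by mean CPM, the testis members made up 5342 CPM in wild-type spermatocytes, 145 in wild-type spermatogonia, 16.1 in Dnmt3C KO/KO spermatogonia and 30.6 in Dnmt3C KO/KO spermatocytes. The corresponding sums of the widely expressed members were 76.8, 339, 351 and 324 CPM, and those of the members of other tissues were 35.8, 47.3, 42 and 106 CPM.

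The 21 testis members did not vary together among the 4 wild-type spermatocyte libraries. In 13 of them (Adam4, Adam6a, Adam6b, Adam20, Adam21, Adam24, Adam25, Adam26a, Adam26b, Adam29, Adam34, Adam34l and Adam39) replicate 3 was 8.44 to 18.2 times as high as replicate 2, while in the other 8 (Adam1a, Adam1b, Adam2, Adam3, Adam5, Adam18, Adam30 and Adam32) the ratio was 0.71 to 1.60. The ratio of 5 that parts the sets was chosen after the values were seen, so no test was made between them. All 13 were lowest in replicate 2, and 12 of the 13 were highest in replicate 3, the exception being Adam34l, which was highest in replicate 1. Of the 8, 7 were highest in replicate 1 or 4. The sum of the 13 was 108.1, 15.1, 156 and 101 CPM in replicates 1 to 4, and that of the 8 was 7107, 3634, 2975 and 7273 CPM.

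In level and gene structure, which the ratio did not use, the sets differed. The 13 had mean levels of 1.31 to 20.8 CPM and 1 to 4 exons, and the 8 had 44.9 to 1643 CPM and up to 22 exons, with Adam1b and Adam30 being single-exon genes. The spermatid marker sum was 654, 87.1, 1665 and 569 CPM in replicates 1 to 4, and since the 13 were chosen for a high ratio of replicate 3 to replicate 2, sharing that order is no support. In the same libraries the pachytene marker sum was 15800, 12990, 8057 and 15170 CPM. These sums are shown as measured, over 4 libraries, and their part in the levels was not tested. Replicates 1 and 4 stood close together in every testis member, with ratios of 0.92 to 1.53.

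**Figure D5:**
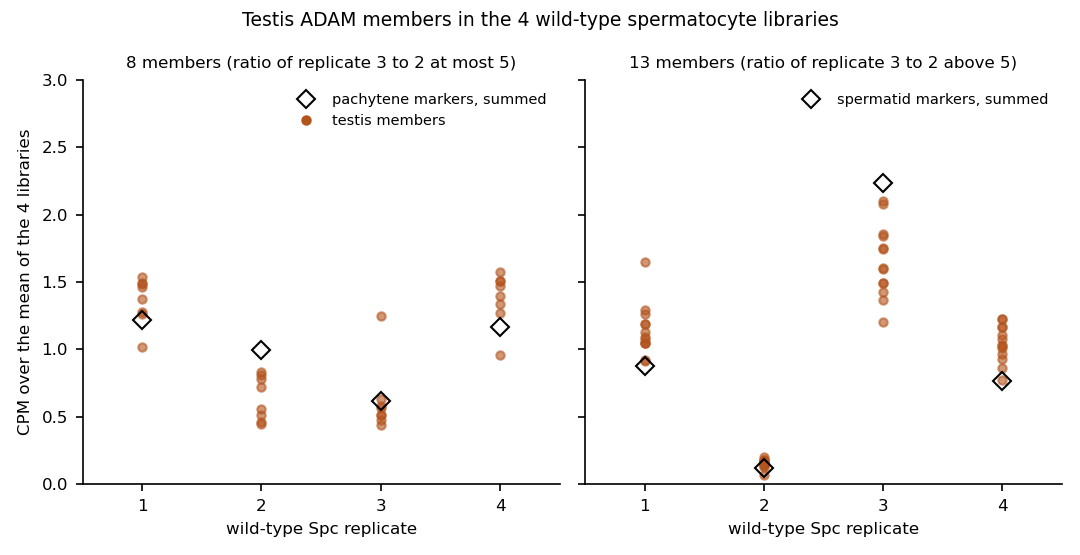
CPM of each testis member divided by its mean over the 4 wild-type spermatocyte libraries, by replicate, for the 8 members with a ratio of replicate 3 to replicate 2 of at most 5 and the 13 members with a higher ratio. Diamonds show the summed pachytene and spermatid markers on the same scale, and the 13 members, chosen by that ratio, are lowest in replicate 2.

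Most genes of a list that acts on sperm ADAM proteins also fell in spermatocytes. Of the 14 genes, for chaperones and processing factors, 11 were called lower and none higher (all genes: 30.7% and 28%), with a median log2 fold change of -3.93. With library totals 8 of the 14 were called lower. Of the 11, Cmtm2b, Pdilt and Prss37 passed the filter through the wild-type libraries alone, which fixed their direction. Calr3 (-1.47), Ace (1.09) and Tpst2 (0.08) were not called. The smallest p belonged to Clgn, which codes for the chaperone calmegin that folds fertilin, to Tmprss12, a membrane serine protease needed for the ADAM3 of sperm, and to Lypd4, a sperm surface protein. Clgn had 2310 ± 657 CPM in wild-type spermatocytes (SD, n = 4) and 34.8 ± 7.18 in Dnmt3C KO/KO, a log2 fold change of -6.01 (adjusted p = 2.53e-06, edgeR). Tmprss12 had 79.7 ± 15.6 CPM against 2.50 ± 0.54 and a log2 fold change of -4.95 (adjusted p = 2.53e-06), and Lypd4 had 467 ± 176 CPM against 5.97 ± 1.71 and a log2 fold change of -6.24 (adjusted p = 3.26e-06). In spermatogonia 0 of 11 tested were called by edgeR, with a median of -0.60, while 6 were lower at an unadjusted p under 0.05 (all genes: 5.55%), of which Cmtm2a passed the filter through the wild-type libraries alone, 1 was called lower with the replicate block (all genes: 0.392%) and DESeq2 called 4 of 13 lower (all genes: 1.37%). The difference between stages was called lower for 3 of 13 (all genes: 14.6%). In wild-type, 8 of 13 were called higher in spermatocytes than in spermatogonia (all genes: 29.2%), and of these Pdilt passed the filter through wild-type spermatocytes alone and Cmtm2b through spermatocytes alone, which fixed their direction. In Dnmt3C KO/KO, edgeR called 0 of 13, with 6 higher at an unadjusted p under 0.05 (all genes: 17.9%), and DESeq2 called 3 higher (all genes: 6.71%).

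Partners and inhibitors of ADAM10 and ADAM17 formed a second list of 15 genes, of which 9 of 14 tested were called higher and 1 lower in Dnmt3C KO/KO spermatocytes (all genes: 28% and 30.7%), with a median log2 fold change of 2.80. Timp1, a secreted inhibitor of metalloproteases, had 0.13 ± 0.07 CPM in wild-type (SD, n = 4) and 3.04 ± 1.71 in Dnmt3C KO/KO, a log2 fold change of 4.58 (adjusted p = 0.000183, edgeR). It had at most 7 counts in a wild-type library and passed the filter through Dnmt3C KO/KO alone, which fixed its direction. Rhbdf1, an inactive rhomboid that escorts ADAM17 through the cell, had 1.29 ± 0.89 CPM against 26 ± 15.7 and a log2 fold change of 4.36 (adjusted p = 0.000326). Timp3, the inhibitor that binds ADAM17, had 4.61 ± 2.19 CPM against 55.9 ± 35.3 and a log2 fold change of 3.64 (adjusted p = 0.000509). Frmd8, which holds the rhomboid complex at the cell surface, was the 1 gene called lower, from 137 ± 58.8 to 32.8 ± 7.89 CPM, a log2 fold change of -2.01 (adjusted p = 0.000539). Timp1 and Timp3 are also made by stromal and Sertoli cells, whose marker sums are given above, and the part of those cells was not tested. In spermatogonia 0 of 14 were called by edgeR, 0 had an unadjusted p under 0.05 and 0 were called by DESeq2. Between stages of the wild-type 1 of 15 was called higher and 6 lower in spermatocytes (all genes: 29.2% and 23.3%). In Dnmt3C KO/KO, edgeR called 0 of 15, with 4 higher (all genes: 17.9%) and 1 lower at an unadjusted p under 0.05, and of the 4 Timp4 passed the filter through Dnmt3C KO/KO spermatocytes alone, which fixed its direction. DESeq2 called 3 higher (all genes: 6.71%). The difference of the genotype effect was called higher for 5 of 15 and lower for 1 (all genes: 11.1% and 14.6%).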

How the data were processed

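RNA-seq of polyadenylated RNA, with strand-specific libraries, was measured in 14 libraries of sorted spermatogonia and spermatocytes. The authors trimmed reads with cutadapt 4.0, aligned them to GRCm38 with STAR 2.7.3a and assigned them to genes and transposon subfamilies with TEtranscripts, and they deposited raw counts per gene and subfamily in 1 table for each stage. Further deposited columns with the DESeq2 1.44.0 results of the authors and separate TPM tables were not used. Per the methods, 1 spermatogonia replicate of each genotype had been left out for RNA quality. Every listed gene or subfamily had at least 2 counts in its table.

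Samples were grouped by their titles. Counts were filtered with filterByExpr, scaled by TMM and tested with the quasi-likelihood F test of edgeR 4.0.16 (R 4.3.3) on all genes and subfamilies of a table, with Benjamini-Hochberg adjustment and a threshold of 0.01. Stage contrasts and the difference of effects used the features listed in both tables. SEs were derived from the F statistic. Positions are from GENCODE M21, while the study used a later release, and 97.5% and 97.6% of the gene identifiers of the 2 tables matched. Where no library of a group exceeded 3 counts, the fold was set against 3 counts and given as a bound. Such bounds and the permutation tests cover these libraries only.

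The members and gene lists were chosen with earlier results of these data known. Every member is named. Values by library are given for the 3 testis members with the highest mean count in wild-type spermatocytes, the members of the fertilin and ADAM3 complexes, the 4 widely expressed members and, in each comparison, the 3 largest called rises and falls. The other lists are given by counts and their 3 called genes of smallest p, and Frmd8 and further members described with values were added after their values were seen.

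Deviations from the group means correlated between spermatogonia libraries of the same replicate number (r = 0.719, 0.19 and 0.286). Dnmt3C KO/KO replicate 2 correlated more with wild-type replicate 3 (r = 0.304) than with replicate 2, so that pairing by number is not certain. Alternatives were DESeq2 1.42.0, other scalings, filters and thresholds, genes alone, the replicate block, replicates 1 and 4 summed and leaving out each library. The fits were tested on simulated data: of genes changed by 2 on the log2 scale, 64.2% were recovered in the spermatogonia and 29.9% in the spermatocyte comparison, and of genes changed by 3, 83.6% and 73.1%. For the difference of effects 10.4% and 52.2% were recovered. The simulations changed 66 or 67 genes at each size, while in the measured spermatocyte comparison 12885 of 21919 genes were called.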

Additional observations from a re-analysis of the deposited data

Results flagged for a closer look

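Of 59 sets of 4 spermatocyte libraries tested for 1 library that stands apart by Dixon's criterion, 7 had one. In 4 of the 7 the other libraries had 0 counts, so that any count stands apart, and in the other 3 the library stood apart from values above 0. Adam15 stood at 97.7 CPM in Dnmt3C KO/KO replicate 2, where the other 3 libraries ranged from 52.5 to 56.6 CPM. Adam8 stood at 2.51 CPM in wild-type replicate 3, with the others from 1.18 to 1.22 CPM. Adam26a stood at 1.82 CPM in wild-type replicate 2, with the others from 15.3 to 17.1 CPM, and at 0.15 CPM in Dnmt3C KO/KO replicate 1, where the others had 0 counts. Adam24 (0.018 CPM), Adam26b (0.018 CPM) and Adam6a (0.055 CPM) each had counts in Dnmt3C KO/KO replicate 3 alone, and these are single libraries with 1 to 3 counts.

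The effect of Dnmt3C KO/KO differed between spermatocytes and spermatogonia for 8 of 21 members by the test of that difference (edgeR), 5 higher and 3 lower, where 11.1% of all genes were called higher and 14.6% lower. Only 3 or 4 calls remained without Dnmt3C KO/KO spermatogonia replicate 2 or 3, without wild-type spermatogonia replicate 1 or 3, or with spermatocyte replicates 1 and 4 summed. In these fits calls over all genes fell as well, from 6251 to between 3521 and 4246. The differences on the log2 scale were 4.60 for Adam12, 4.31 for Adam23, 2.85 for Adam10, 2.07 for Adam9, 1.14 for Adam17, -1.53 for Adam1a, -4.03 for Adam30 and -4.75 for Adam4. Adam4 passed the filter on low counts through wild-type spermatocytes alone, which fixed its direction.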

How the results depend on the processing

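In spermatocytes 29 members were called, and the count ranged from 26 to 30 over all alternatives and from 26 to 30 when each library was left out, with no direction turned. In spermatogonia, where 0 were called, 1 was called at an adjusted p under 0.05, 6 by DESeq2, 3 without a filter on low counts and 4 with the replicate block, and 0 to 1 when each library was left out. The difference of effects (8 members) gave 13 at an adjusted p under 0.05, 5 with the replicate block, 4 with spermatocyte replicates 1 and 4 summed and 3 to 11 when each library was left out. Over all genes the calls were 6251, and 11191, 5977, 3521 and 3793 to 8993 at these settings. For wild-type spermatocytes against spermatogonia (16 members), 27 were called when genes listed in 1 table were set to 0 in the other, a choice made after seeing the data, and 15 to 16 when each library was left out. With those genes set to 0, the testis members that the spermatogonia table does not list passed the filter through spermatocytes alone. This fixed their direction, and 13647 of all 25222 genes tested were called at that setting. For the stages of Dnmt3C KO/KO (3 members) the count was 7 at an adjusted p under 0.05, 9 by DESeq2, 1 on genes alone, 1 with replicates 1 and 4 summed and 0 to 4 when each library was left out. The calls over all genes were 742, and 2043, 2308, 682, 346 and 112 to 1005 at these settings. The cause of these shifts was not tested. In spermatogonia the log2 value of Adam10 was -0.03 without Dnmt3C KO/KO replicate 1 and -0.10 without wild-type replicate 2, and ranged from -0.10 to 0.20 when each library was left out. Between the stages of Dnmt3C KO/KO, that of Adam17 was -0.049 with library totals, -0.012 with replicates 1 and 4 summed and between -0.078 and 0.10 when each library was left out. Of 558 values in spermatocytes 534 kept direction and side of the threshold, 21 lost their call and 3 gained one. The replicate block gave 27 called members in spermatocytes, where the r of libraries of the same number was 0.085, 0.235, -0.017 and 0.139, and it was not run for the stage contrasts. Depth limits the members at the floor, whose falls are bounds.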
